A study of Mus musculus with 30 samples.

Results

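CGR8 mouse embryonic stem cells were compared after 2 h of cycloheximide and at 0 h, with 3 libraries in each group, and every gene of the deposited count table was considered. These are 6 of the 30 libraries of the study. The table held 57186 gene identifiers, of which 15933 (27.9%) had enough counts in CGR8 to be tested. The study followed RNA in 2 mouse lines, CGR8 and NIH/3T3 fibroblasts, sampled after 0, 1, 2, 5 or 48 h with the translation inhibitor cycloheximide (0.1 µg/mL) as replicates A, B and C. Its stated question for this comparison is how transcripts respond early when protein synthesis is inhibited. CGR8 is a feeder-independent stem cell line and was kept here in N2B27 medium with 2i (inhibitors of MEK and GSK3) and the cytokine LIF. All 6 libraries come from cells of the genotype ROSA26 SLT knock-in, so the 0 h controls carry the insertion too, and the labels name no clone. The 0 h and 2 h cells differ in the time with cycloheximide alone, as far as the labels say. Nothing in the labels states that replicates were separate cultures. Within CGR8 the p-values measure the spread between replicates over all 15 CGR8 libraries, not the 6 compared alone. That spread may be technical.

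Cycloheximide binds the ribosome and stops elongation of the nascent chain. Proteins with short lives are lost first, among them repressors of transcription and proteins that bring about mRNA decay, and mRNAs whose decay needs translation can accumulate. Stem cells in 2i with LIF keep a naive state through STAT3 and the factors Pou5f1, Sox2, Nanog, Klf4 and Esrrb, while amino-acid supply is read by the kinase GCN2 and the transcription factor ATF4, which turns on genes for amino-acid uptake and synthesis.

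Depth was similar in the groups, with totals of 23.3 to 29.9 M counts (mega-counts) per library. Libraries did not all resemble their replicates. Between 0 h replicates A and C, chi-square per degree of freedom over genes was 3.55, whereas replicate B differed from these by 36.2 and 36.3, and the 2 h replicates differed from each other by 37.5 to 61.7. The deviation of a library from the mean of the other replicates of its group was taken per gene on the log2 scale over 8886 genes. Among the 6 libraries it had its largest spread in 2 h replicate A (SD 0.40) and 0 h replicate B (SD 0.33). The deviations of 2 h replicate A and 0 h replicate B had a Pearson correlation of 0.87 across genes. Leaving out both ended 8 of the 135 calls among named genes. The stem cell identity was visible in the markers: all 13 were present, the lowest at 26.5 CPM (counts per mega-count of the library, after scaling), and their summed level was 6661 to 6869 CPM at 0 h and 6954 to 7506 CPM at 2 h. Markers of other cells varied. Under 1 CPM in all 6 libraries were 5 of 6 fibroblast and feeder markers and 6 of 8 primitive endoderm markers. Summed levels were 4.15 to 5.13 CPM at 0 h and 3.14 to 4.99 CPM at 2 h for the fibroblast markers. For the primitive endoderm markers they were 4.12 to 4.79 CPM and 3.62 to 4.35 CPM. Other lists had higher sums: the 6 neural markers 123 to 163 CPM at 0 h and 114 to 149 CPM at 2 h, most of it Tubb3, a tubulin (mean 121 CPM at 0 h), the 6 trophoblast markers 74.6 to 76.6 CPM and 76.5 to 93.7 CPM, led by Tfap2c, and the 6 mesoderm markers 29.7 to 31.4 CPM and 21.8 to 25.6 CPM, led by Eomes. Neurog2, a neural marker, was at 0 in all 6 libraries. What part cells of other types have in the results was not tested.

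Within 2 h, 3174 genes (19.9% of those tested) changed at an adjusted p under 0.05 by edgeR's quasi-likelihood test with Benjamini-Hochberg adjustment. Of these, 1429 (8.97%) were higher and 1745 (11% of those tested) lower, and for 2944 of the called genes the 3 libraries at 2 h lay wholly above or wholly below the 3 at 0 h. Groups that did not overlap were found for 32.1% of all tested genes, called or not. Most changes were small: 443 genes (2.78%) were called and at least 2-fold different, 290 (1.82%) higher and 153 (0.96%) lower. The rises of this size were mostly in transcripts of low level, with a median of 1.17 CPM at 2 h, while those that fell had a median of 7.42 CPM at 0 h. When genes under a mean of 5 CPM were left out, 35 genes rose and 67 fell by at least 2-fold. Without 0 h replicate B and 2 h replicate A, 2940 genes were called (7.56% higher and 10.5% lower of those then tested), and 2446 of the 3174 calls were kept, all in the same direction. The total depends on single libraries: leaving out 2 h replicate C gave 1062 calls, leaving out 0 h replicate A gave 1424, leaving out 0 h replicate C gave 1690, and fitting the 2 compared groups alone gave 965.

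**Figure D1:**
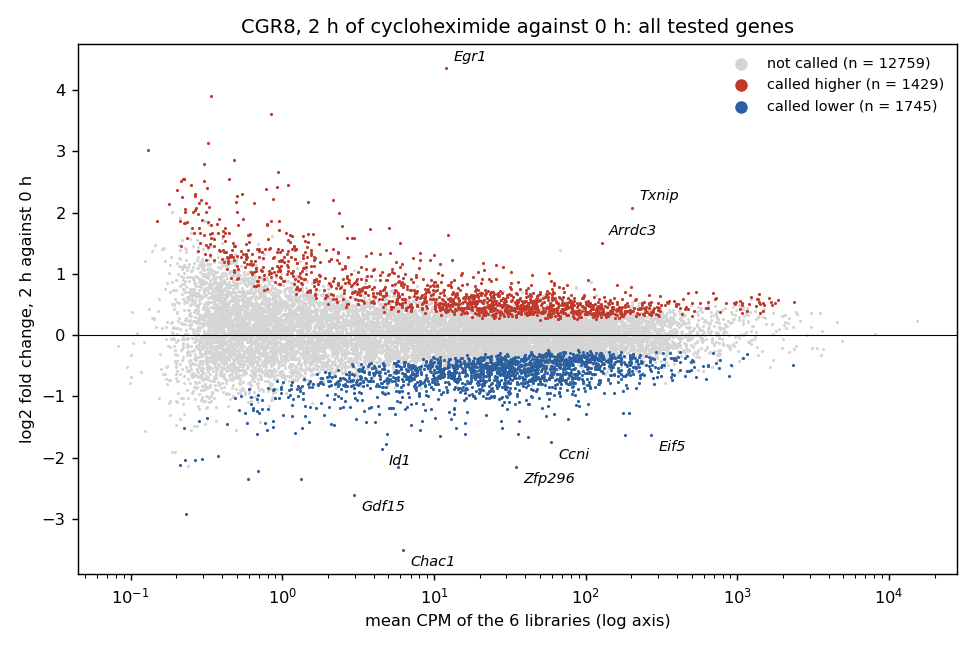
Each point is a tested gene, with the mean CPM of the 6 libraries on a log axis and the log2 fold change at 2 h against 0 h on the other axis. The 1429 genes called higher (red) reach their largest changes at low CPM, apart from Egr1 at 4.36 and Txnip at 2.08, and the 1745 called lower (blue) include Chac1 at -3.51.

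The 28 genes named first are the 14 largest rises and the 14 largest falls among called genes of at least 10 CPM whose groups did not overlap. Each of the 28 kept its call under all 16 alternative analyses, including each library left out, except that Chac1 was not tested in the one limited to a mean of at least 5 CPM. Among the rises, 10 of 14 come from genes with at most 3 exons in their longest coding transcript, against 13.7% of all tested protein-coding genes, and 3 (Lpar6, Trmt12 and Ranbp6) have a single exon. Among the falls, 5 of 14 have at most 3 exons, which is also a larger share than the 13.7% of all tested protein-coding genes. The median is 2 exons for the rises and 8 for the falls, against 9 for all tested protein-coding genes. Nearest to the limits of this choice were Eras, the smallest of the 14 rises at 1.06, and Irf2bp2, the smallest of the falls at -1.44.

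**Figure D2:**
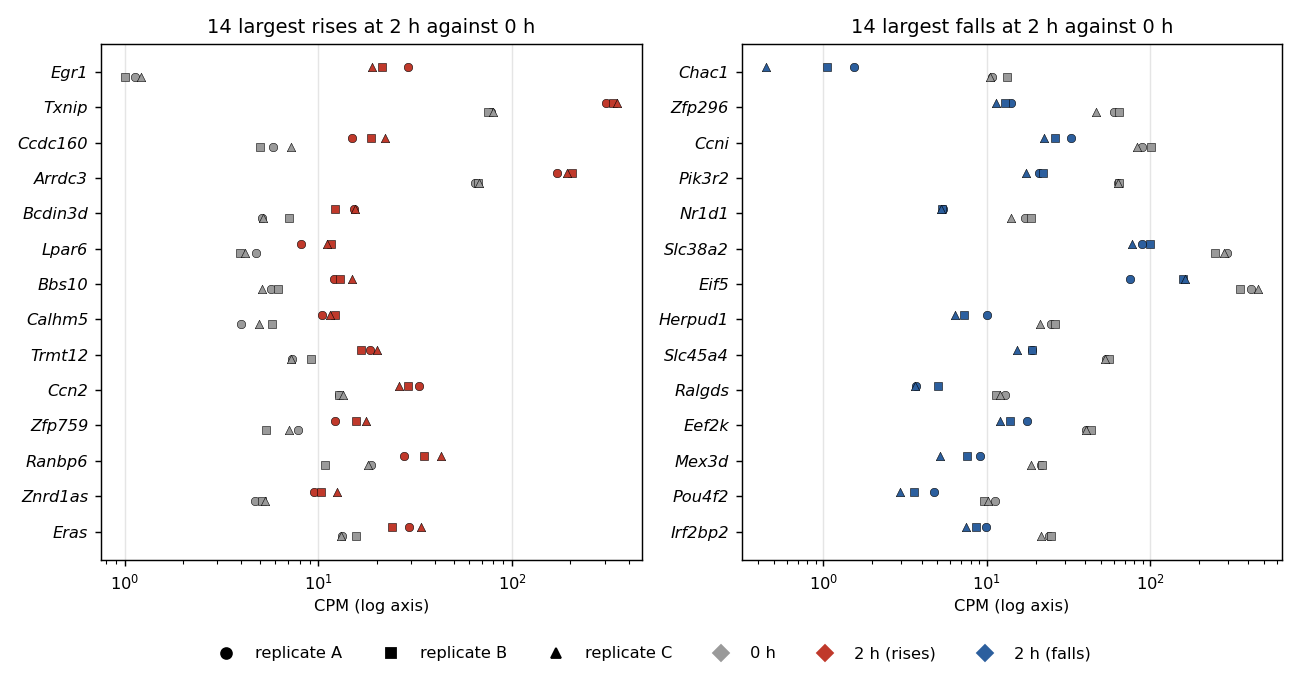
CPM on a log axis in each of the 3 libraries at 0 h (grey) and at 2 h (red for the 14 largest rises, blue for the 14 largest falls), with symbols for replicates A, B and C. No gene shows overlap between the times, which the choice of genes required, and Egr1 and Chac1 have the widest gaps.

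Many of the called genes of the amino-acid and integrated stress response were falls. Of 46 tested ATF4 targets, 18 fell and 1 rose, with a median log2 fold change of -0.29, where 11% of all genes fell and the median of all genes was 0.01. Chac1, which encodes an enzyme that degrades glutathione, fell furthest of the 14. It stood at 10.7, 13.3 and 10.4 CPM in 0 h replicates A, B and C and at 1.55, 1.06 and 0.448 CPM after treatment. The lowest control was thus far above the highest treated library, and the log2 fold change was -3.51 (SE 0.33, adjusted p = 1.2e-05). Slc38a2, the amino-acid carrier SNAT2, went from 294, 250 and 283 CPM to 88.8, 99.8 and 78.0 CPM, a log2 fold change of -1.63 (SE 0.16, adjusted p = 1.4e-05). Herpud1, a membrane protein of the endoplasmic reticulum (ER) that helps to clear misfolded proteins, went from 24.9, 26.4 and 21.3 CPM to 10.1, 7.29 and 6.39 CPM, a log2 fold change of -1.61 (SE 0.15, adjusted p = 1.0e-05). Sesn2, an inhibitor of mTORC1 in leucine shortage, fell from 142, 149 and 135 CPM to 72.9, 57.8 and 44.2 CPM, by 1.28 on the log2 scale (SE 0.14). An annotated gene on the same strand overlaps Sesn2, so its counts may be shared. All 3 treated libraries were below all 3 controls for each of these genes.

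Other ATF4 targets, chosen after their values were seen, show the breadth of the fall. Atf4 itself was at 149, 136 and 144 CPM at 0 h and at 61.5, 65.5 and 69.6 CPM at 2 h (log2 fold change -1.13, SE 0.14, adjusted p = 9.1e-05). The change was -0.93 for Trib3, a pseudokinase that restrains ATF4, -0.77 for Ddit3, which encodes the stress factor CHOP, and -0.94 for Slc7a1, a carrier of cationic amino acids, all called lower. The 1 member that rose was Slc3a2, the heavy chain of several amino-acid exchangers, with 0.49 (SE 0.10). Asns, asparagine synthetase, had a log2 fold change of 0.10 (adjusted p = 0.62), and none of the 19 tested aminoacyl-tRNA synthetases was called by edgeR, with a median of -0.05. For the synthetases 4 had an unadjusted p under 0.05, and DESeq2 called 3 and voom 4. The ATF4 count was 17 lower and 1 higher after trends with transcript length and GC content were removed, and 11 lower without 0 h replicate A. The list of ER chaperones and the unfolded protein response had 6 of 25 members lower and 0 higher, where 11% of all genes were lower. Without 2 h replicate C 3 were lower. Syvn1, the ubiquitin ligase of ER-associated degradation, was at 38.6, 36.9 and 36.7 CPM and then at 18.4, 21.1 and 15.4 CPM (log2 fold change -1.03, SE 0.11), and Eif2ak3, the ER stress kinase PERK, fell by 0.89 on the log2 scale (SE 0.14).

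Promoter sequence is shown for Chac1 and Herpud1 because both are among the 14 largest falls and both hold, in the 250 bases before the RefSeq start, the element TGATGNAA that ATF4 binds with a C/EBP partner. The windows are chr2:119350992-119351241 (plus strand) for Chac1 and chr8:94386179-94386428 (plus strand) for Herpud1, from RefSeq on GRCm38.p6, written 5′ to 3′ on the gene's strand. Capitals mark the match, which in both reads on the opposite strand as TGATGCAA and begins 193 bases before the start in Chac1 and 112 bases before it in Herpud1.
Chac1: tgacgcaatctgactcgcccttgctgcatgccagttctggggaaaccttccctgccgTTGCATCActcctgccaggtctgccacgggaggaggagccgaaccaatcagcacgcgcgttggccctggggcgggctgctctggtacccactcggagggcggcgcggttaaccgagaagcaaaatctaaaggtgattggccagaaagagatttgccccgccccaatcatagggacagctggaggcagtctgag
Herpud1: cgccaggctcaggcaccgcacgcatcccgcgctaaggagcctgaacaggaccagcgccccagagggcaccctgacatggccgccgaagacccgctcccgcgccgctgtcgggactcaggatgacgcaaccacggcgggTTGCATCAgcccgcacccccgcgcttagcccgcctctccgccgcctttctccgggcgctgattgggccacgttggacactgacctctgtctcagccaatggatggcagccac
Of the 46 tested members, 37 had a promoter entry, and 11 of these (29.7%) held TGATGNAA on either strand, against 3.45% of all 32851 promoter windows of the same length. Members were counted by gene, with a match in any window of the gene (45 windows for the 37), and the background by window. The percentages are thus not in the same unit. The exact form TGATGCAA stood in 8 of the 37 and in 0.791% of all windows. Among the 16 members called lower that had an entry, 4 held the element, namely Chac1, Herpud1, Jdp2 and Vldlr. The other holders were Aars, Asns, Gars, Nupr1, Pck2, Slc7a11 and Tars, and their log2 fold changes lay between -0.18 and 0.11 with no call. A match in these letters is a description of the window and was not tested as a binding site. Further motifs were searched in the same windows, on both strands, with CACGTG in 6.02% of all windows, TGACGTCA in 1.55%, TGACGNAA in 1.39% and a form of the CArG box bound by SRF in 0.0609%. Of the 37 members, 5 (13.5%) held CACGTG, 1 held TGACGTCA, 2 held TGACGNAA and 0 held the CArG form. The 2 with TGACGNAA, a CRE-like ATF element, were Chac1 and Herpud1, where it is left in lower case above. TGATGCAA is a case of TGATGNAA, and matches of different motifs can overlap.

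Egr1, an immediate-early zinc-finger transcription factor, had the largest rise of all named genes. Its level was 1.12, 1.01 and 1.21 CPM in the controls and 28.9, 21.4 and 18.9 CPM at 2 h (log2 fold change 4.36, SE 0.19, adjusted p = 2.3e-09). The 1 h libraries lay higher still, at 42.7 to 49.3 CPM, and the level at 2 h was lower than at 1 h by edgeR (log2 fold change -0.99, SE 0.15, adjusted p = 0.0048). At 5 h the mean was 0.424 CPM, below the control (log2 fold change -1.39, adjusted p = 8.4e-04 by edgeR). Ccn2, a matricellular protein induced by YAP and SRF, rose from 12.8, 12.7 and 13.4 CPM to 33.0, 29.0 and 26 CPM (log2 fold change 1.18, SE 0.14), with every treated library about 2-fold above every control.

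The list of immediate-early genes moved both ways. Of 49 tested members, 11 rose (8.97% of all genes did) and 16 fell (11% of all genes), and the median was -0.26. Without 0 h replicate C 7 rose, and without 2 h replicate C 10 fell. Among the falls were feedback inhibitors of growth-factor signalling. Spry4, a Sprouty inhibitor of ERK signalling, was at 104, 120 and 105 CPM at 0 h and at 49.6, 46.6 and 31.8 CPM at 2 h (log2 fold change -1.36, SE 0.14, adjusted p = 2.9e-05). Nab2, a corepressor of EGR proteins, went from 6.17, 6.30 and 5.28 CPM to 2.71, 2.37 and 2.91 CPM (log2 fold change -1.15, SE 0.20). In neither gene did the groups overlap. Fos and Jun, chosen after their values were seen, rose by 0.98 and 0.99 on the log2 scale from mean levels of 1.17 and 1.88 CPM, while Ier2 had a change of 0.03 (adjusted p = 0.90) and Nr4a1 one of -0.99.

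The same list behaved differently in NIH/3T3, which were grown in serum. There 42 of the 49 members rose and 1 fell at 2 h against 0 h, with a median of 1.04. The share of all genes called in NIH/3T3 is not given here, so nothing is read from these counts alone. The difference between the lines was tested directly, as an interaction in all 30 libraries: for 35 of the 49 members the change was more negative in CGR8 and for 1 it was more positive, where 1.16% of all 17549 genes tested were called negative and 0.866% positive. Depending on the analysis, 34 to 40 members were called negative. Egr1 was the 1 positive member, at 1.92 (SE 0.27, adjusted p = 4.4e-05); it stood at 117 ± 8.15 CPM (SD, n = 3) in untreated NIH/3T3 and reached 663 ± 77.7 CPM there, so that its level in CGR8 was far below that in NIH/3T3 at both times. Over all genes the 2 h change differed between the lines for 355 (2.02%). Line and medium differ together in this design and their parts cannot be told apart.

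Among pluripotency factors the changes were modest and went both ways. Pou5f1, at 607, 670 and 575 CPM and then at 631, 655 and 828 CPM, had a log2 fold change of 0.19 (SE 0.15, adjusted p = 0.38), and Sox2, at 281, 251 and 265 CPM and then at 311, 310 and 283 CPM, one of 0.18 (SE 0.09, adjusted p = 0.16). Neither passed the test, and the Pou5f1 groups overlapped. Klf4, a target of LIF signalling, fell from 250, 243 and 250 CPM to 172, 175 and 135 CPM (log2 fold change -0.63, SE 0.10, adjusted p = 7.9e-04). Esrrb, a nuclear receptor of the naive network, fell from 874, 888 and 878 CPM to 753, 717 and 532 CPM (log2 fold change -0.40, SE 0.13, adjusted p = 0.047). Nanog was higher, from 698, 630 and 679 CPM to 775, 853 and 984 CPM (log2 fold change 0.38, SE 0.11, adjusted p = 0.022), as was Zfp42, the marker Rex1, from 931, 911 and 967 CPM to 1162, 1118 and 1330 CPM (log2 fold change 0.36, SE 0.09). The Klf4 call held in each analysis run, whereas the calls of Esrrb, Nanog and Zfp42 were lost without 0 h replicate A, among other settings, and after length and GC trends were removed the 3 changes were -0.16, 0.16 and 0.11.

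Of 22 naive pluripotency factors 4 rose and 5 fell, with a median of -0.18, where 8.97% of all genes rose and 11% fell. Without 0 h replicate A, none of the 22 was called higher, without 0 h replicate C 2 were lower, and with length and GC trends removed 2 were higher and 2 lower. In the separate list of 26 stem cell marker genes 6 rose and 2 fell (median 0.16). Without 0 h replicate A 2 were called higher, and with the trends removed 4 were, with a median of 0.03. Zfp296, a zinc-finger partner of Klf4, was one of the falls and the second largest of the 14 named first: it stood at 60.1, 64.2 and 47.0 CPM at 0 h and at 14.1, 13 and 11.4 CPM at 2 h (log2 fold change -2.15, SE 0.14, adjusted p = 3.2e-07). Its 1 h mean was 28.0 CPM and its 5 h mean 94.7 CPM, above the control. Fgf4, the growth factor that drives exit from the naive state through ERK, fell from 231, 246 and 225 CPM to 138, 141 and 121 CPM (log2 fold change -0.81, SE 0.09, adjusted p = 3.2e-05). Tdgf1, the Nodal co-receptor Cripto, rose from 390, 406 and 416 CPM to 593, 598 and 790 CPM (log2 fold change 0.71, SE 0.12), and Fbxo15 rose by 0.59 (SE 0.13). Eras, a constitutively active Ras of stem cells that falls outside both lists, rose from 13.2, 15.6 and 13 CPM to 29.2, 23.9 and 33.9 CPM (log2 fold change 1.06, SE 0.20). Of 8 formative and primed markers 1 rose and 2 fell, and their summed level was 398 to 419 CPM at 0 h and 328 to 398 CPM at 2 h. Otx2 went from 6.46 to 7.79 CPM at 0 h to 12.2 to 15.8 CPM at 2 h (log2 fold change 1.01, SE 0.20), while Pou3f1, a POU factor, and Cdh2, N-cadherin, had log2 fold changes of -1.30 (SE 0.27) and -0.59 (SE 0.12), both called.

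Among 18 LIF, STAT3 and SOCS genes 7 fell and 1 rose (median -0.36), where 11% of all genes fell and 8.97% rose. Socs2, a suppressor of cytokine signalling, was at 78.0, 67.1 and 77.2 CPM and then at 48.8, 46.0 and 43.0 CPM (log2 fold change -0.69, SE 0.10, adjusted p = 2.8e-04), and Stat3 fell by 0.48 (SE 0.11), but by 0.16 with no call after length and GC trends were removed. The member that rose was Icam1, an adhesion molecule, from 38.6, 40.0 and 35.7 CPM to 59.9, 63.1 and 62.3 CPM (log2 fold change 0.70, SE 0.09). Without 2 h replicate C 3 of the 18 were called lower and without 2 h replicate A 11 were. With the trends removed 5 were lower, with a median of -0.19.

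Targets of BMP signalling moved apart. Id1, an inhibitor of basic helix-loop-helix factors, fell from 6.94, 8.07 and 6.32 CPM to 1.59, 1.87 and 2.39 CPM (log2 fold change -1.86, SE 0.23, adjusted p = 1.0e-04), while its paralog Id3 rose from 73.4, 74.7 and 70.4 CPM to 140, 125 and 140 CPM (log2 fold change 0.89, SE 0.13, adjusted p = 4.0e-04). In both genes the 2 h libraries were clear of the controls. Axin2, a Wnt target and feedback inhibitor, fell from 82.1, 78.4 and 80.9 CPM to 42.6, 54.1 and 41.1 CPM (log2 fold change -0.81, SE 0.11), and Ski, a repressor of SMAD signalling, fell by 0.80 (SE 0.14). Of the 26 members of the BMP, TGF-beta and Wnt list, 6 fell (23.1%) and 3 rose (11.5%), where 11% of all genes fell and 8.97% rose.

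Txnip and its relatives rose. Txnip, an alpha-arrestin that limits glucose uptake and is induced by the glucose sensor MondoA, was at 77.9, 74.6 and 80.0 CPM at 0 h and at 305, 332 and 348 CPM at 2 h (log2 fold change 2.08, SE 0.12, adjusted p = 4.8e-08). Arrdc3, a second alpha-arrestin, went from 64.2, 66.5 and 67.8 CPM to 170, 203 and 192 CPM (log2 fold change 1.51, SE 0.13), and Arrdc4 from 41.8, 43.7 and 41.5 CPM to 51.4, 64.9 and 61.8 CPM (log2 fold change 0.49, SE 0.12, adjusted p = 0.012). For each of the 3 genes all treated libraries exceeded all controls, and the Arrdc4 call was lost without 0 h replicate A and without 2 h replicate C. Mlxip, which encodes MondoA, fell by 0.55 (SE 0.13), but by 0.17 after length and GC trends were removed. Of 13 tested members 3 rose and 2 fell, where 8.97% of all genes rose and 11% fell. Without 2 h replicate C, or with the trends removed, 0 fell. At 1 h Txnip was at 264 to 292 CPM, and the level at 2 h did not pass the test against 1 h (log2 fold change 0.25, SE 0.11, adjusted p = 0.15).

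**Figure D3:**
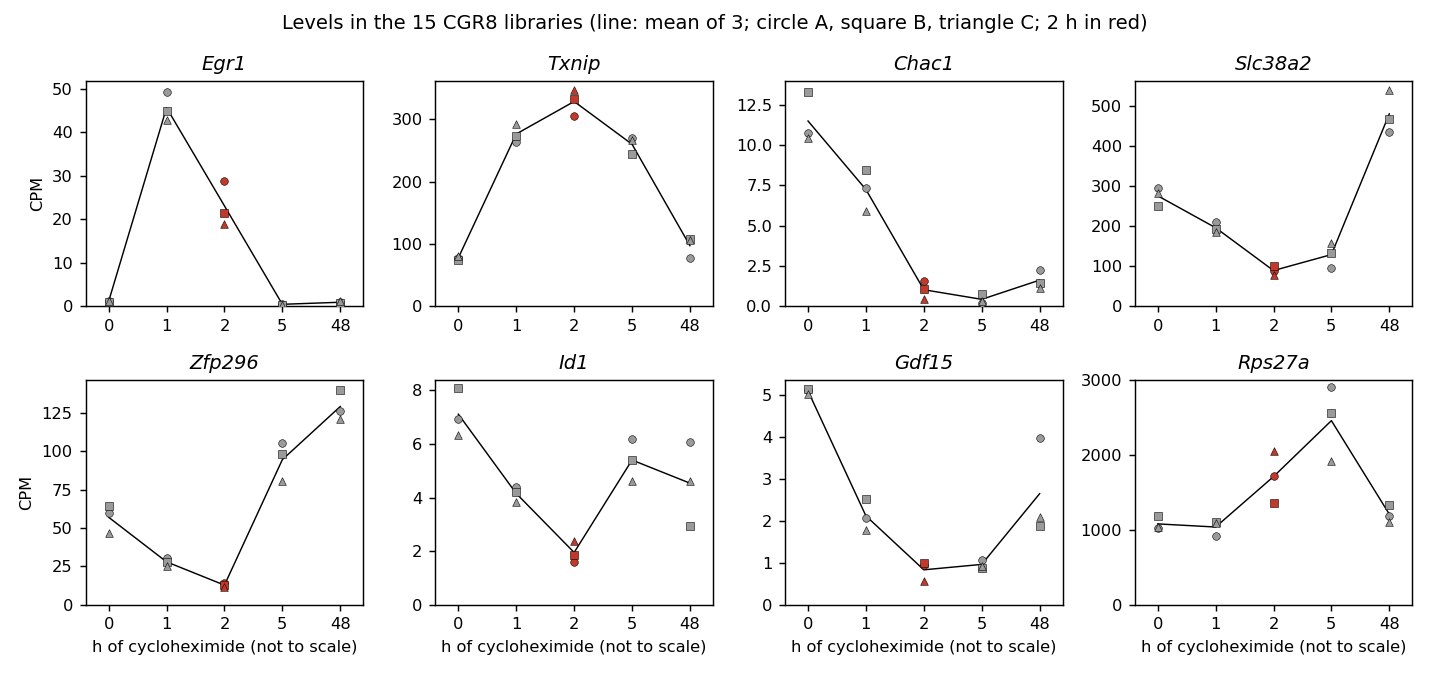
CPM of 8 genes in each of the 15 CGR8 libraries at 0, 1, 2, 5 and 48 h, with 2 h in red and a line through the means of 3. Egr1 is highest at 1 h and below its control level at 5 h, Txnip stays above 240 CPM from 1 to 5 h, and Zfp296 has its lowest values at 2 h.

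Several regulators of mRNA decay have short-lived mRNAs themselves. Of 22 members 10 fell and 1 rose, where 11% of all genes fell and 8.97% rose. The median of -0.45 was the lowest of all 40 lists. Tob2, an adaptor of the CCR4-NOT deadenylase, went from 19.6, 17.7 and 18.3 CPM to 7.18, 8.31 and 6.09 CPM (log2 fold change -1.37, SE 0.12, adjusted p = 6.7e-06). Zfp36l2, a protein that binds AU-rich elements, went from 41.1, 37.7 and 36.6 CPM to 18.7, 19.5 and 13.9 CPM (log2 fold change -1.15, SE 0.16), and Rc3h1, the stem-loop binding protein Roquin, fell by 1.04 (SE 0.20). Each had groups that did not overlap. Without trends of length and GC 12 of the 22 were lower, and without 0 h replicate A 5 were.

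Of 31 growth-arrest and death genes under p53, 10 fell and 1 rose (median -0.26), where 11% of all genes fell and 8.97% rose. Without 2 h replicate C 6 fell, and 14 fell without 0 h replicate B or with length and GC trends removed. Gdf15, a secreted stress cytokine, stood at 5.11, 5.13 and 5.03 CPM and then at 0.947, 0.990 and 0.560 CPM (log2 fold change -2.61, SE 0.28, adjusted p = 2.9e-05). Bbc3, the death protein PUMA, went from 10.3, 8.64 and 7.91 CPM to 4.86, 3.82 and 3.02 CPM (log2 fold change -1.21, SE 0.18), and Zmat3 fell by 0.79 (SE 0.12). Cdkn1a, the p21 inhibitor, fell from 62.6, 73.2 and 59.1 CPM to 50.6, 49.5 and 43.7 CPM (log2 fold change -0.44, SE 0.11, adjusted p = 0.012), a call lost without 2 h replicate C. Sesn2 is in this list and in that of ATF4. Mcl1, the short-lived survival protein of the BCL2 family, was higher, at 308, 313 and 314 CPM and then at 472, 427 and 470 CPM (log2 fold change 0.55, SE 0.08, adjusted p = 5.0e-04), whereas its opponent Bcl2l11 (BIM) fell by 0.77 (SE 0.12). In the MYC, MAX and MXD network 5 of 12 fell and 0 rose, where 11% of all genes fell. Without 2 h replicate C 2 of the 12 fell, and with the trends removed 3 fell and 1 rose. The fall was led by the repressor Mnt, from 57.7, 59.3 and 57.6 CPM to 35.3, 31.2 and 21.7 CPM (log2 fold change -0.99, SE 0.14). Myc itself, at 62.7, 64.5 and 64.3 CPM and then at 54.5, 52.4 and 44.3 CPM, did not pass the test (log2 fold change -0.34, SE 0.13, adjusted p = 0.084).

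Among 17 circadian clock genes 5 fell and 0 rose, where 11% of all genes fell and 8.97% rose. The median was -0.32 (-0.11 with length and GC trends removed), and 2 fell without 0 h replicate A. Nr1d1, the clock repressor REV-ERB alpha, went from 17.2, 18.6 and 14.1 CPM to 5.42, 5.34 and 5.27 CPM (log2 fold change -1.64, SE 0.16, adjusted p = 1.2e-05). Ciart, the repressor CHRONO, went from 10.8, 12.2 and 12.3 CPM to 7.44, 5.83 and 4.74 CPM (log2 fold change -0.97, SE 0.18), and Cry2 and Cry1 fell by 0.51 and 0.28. The Cry2 call was lost with the trends removed and without 0 h replicate A or 2 h replicate C. The Cry1 call was lost with any single library left out except 2 h replicate A, and without both 0 h replicate B and 2 h replicate A. Nr1d1 and Ciart kept their calls with length and GC trends removed, where 3 of the 17 were lower. The promoter of Ciart is shown because it holds the E-box CACGTG, the site of CLOCK and BMAL1, 3 times within 250 bases, beginning 116, 58 and 44 bases before the start. The window is chr3:95882229-95882478 (minus strand, RefSeq on GRCm38.p6), written 5′ to 3′ on the gene's strand with the matches in capitals.
Ciart: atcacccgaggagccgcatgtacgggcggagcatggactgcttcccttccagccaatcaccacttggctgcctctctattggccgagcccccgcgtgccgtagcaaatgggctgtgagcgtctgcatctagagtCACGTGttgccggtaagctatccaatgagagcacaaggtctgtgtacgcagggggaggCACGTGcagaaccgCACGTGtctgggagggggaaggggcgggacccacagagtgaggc
Of 15 clock genes with a promoter entry 5 held CACGTG (Bhlhe41, Ciart, Cry1, Per1 and Tef), and of the 5 that fell Ciart and Cry1 did.

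The remaining large falls belong to several functions. Ccni, cyclin I, went from 89.5, 102 and 83.5 CPM to 33.0, 26.3 and 22.3 CPM (log2 fold change -1.75, SE 0.14, adjusted p = 2.6e-06), and an annotated gene on the same strand overlaps it, so its counts may be shared. Pik3r2, a regulatory subunit of PI3K, went from 63.9, 64.2 and 63.4 CPM to 20.8, 22.1 and 17.3 CPM (log2 fold change -1.67, SE 0.12, adjusted p = 6.2e-07). Eif5, the GTPase activator of the initiation complex, fell from 414, 356 and 457 CPM to 75.2, 159 and 164 CPM (log2 fold change -1.62, SE 0.23), with 2 h replicate A far below the other 2 h libraries. Eif5 also overlaps a gene on its strand. Eef2k, the kinase that slows elongation factor 2, fell from 40.5, 43.6 and 40.5 CPM to 17.6, 13.9 and 12 CPM (log2 fold change -1.52, SE 0.13). Eef2k too overlaps an annotated gene on its strand. The transporter gene Slc45a4, the Ral activator Ralgds, the RNA-binding protein Mex3d, the homeodomain factor Pou4f2 and the corepressor Irf2bp2 fell by 1.61, 1.56, 1.51, 1.47 and 1.44 on the log2 scale, with SEs of 0.13 to 0.17.

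The remaining large rises were in genes of low level. Ccdc160, a coiled-coil gene, went from 5.81, 4.97 and 7.24 CPM to 15, 18.7 and 22.2 CPM (log2 fold change 1.63, SE 0.17), and Bcdin3d, an RNA methyltransferase, from 5.11, 7.03 and 5.15 CPM to 15.2, 12.2 and 15.5 CPM (log2 fold change 1.31, SE 0.16). Lpar6, a receptor for lysophosphatidic acid, went from 4.79, 3.92 and 4.19 CPM to 8.18, 11.6 and 11.1 CPM (log2 fold change 1.26, SE 0.16). Bbs10, a chaperonin-like ciliary gene, Calhm5, a channel gene, and Trmt12, an enzyme of tRNA modification, rose by 1.23, 1.23 and 1.22 (SEs 0.14 to 0.15). Zfp759, the importin-like Ranbp6 and the antisense transcript Znrd1as completed the set with 1.16, 1.15 and 1.10. Reads from Znrd1as and its partner on the other strand cannot be told apart if counting ignored strand, which is not given in the sources used here. At 1 h each of the 28 had the sign of its 2 h change, with 7 of the 14 rises and 6 of the 14 falls called at 1 h against 0 h, which shares the 0 h libraries. Against 1 h, 7 of the 14 rises and 13 of the 14 falls were called different at 2 h, where 6.59% of all genes were (2.71% higher and 3.88% lower). The 28 were chosen by their 2 h values, which enter this contrast too, so nothing is read from these shares. Against 1 h 1050 genes were called in all. Refits, each counted over the genes then tested, called 26 without 1 h replicate A, 75 without 1 h replicate B, 92 without 1 h replicate C and 28 without 2 h replicate C.

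Long noncoding transcripts were counted apart, with no test between classes. Of 398 long intergenic noncoding RNAs 64 rose (16.1%) and 7 fell, and of 310 antisense RNAs 39 rose (12.6%) and 3 fell, against 1152 of 13042 protein-coding genes that rose (8.83%) and 1709 that fell. By at least 2-fold, 39 of the intergenic RNAs rose (9.80%) and 130 of the protein-coding genes did (0.997%). Their median level was 1.04 CPM for the intergenic and 0.693 CPM for the antisense RNAs, against 23.5 CPM for protein-coding genes. After length and GC trends were removed 33 of the intergenic RNAs (8.29%), 23 of the antisense RNAs (7.42%) and 895 of the protein-coding genes (6.86%) were higher.

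Among genes for the machinery of translation and respiration the calls were small rises, and they depend on single libraries. Of 78 cytosolic ribosomal protein genes 23 rose and 0 fell, where 8.97% of all genes rose and 11% fell. All 78 had a positive change, and the median was 0.42. Of 61 mitochondrial ribosomal protein genes 24 rose and 0 fell (median 0.39), of 63 nuclear-encoded respiratory chain subunits 12 rose and 0 fell (median 0.38), and of 32 proteasome subunits 7 rose and 0 fell (median 0.34). Rps27a, which encodes ubiquitin fused to a ribosomal protein, was at 1024, 1179 and 1037 CPM and then at 1723, 1359 and 2052 CPM (log2 fold change 0.66, SE 0.16, adjusted p = 0.011), with 2 h replicate B well below the others. Ribosomal protein genes have many processed copies, so their counts are uncertain. Mrpl41, of the mitochondrial ribosome, went from 13.6, 15.5 and 14.7 CPM to 25.8, 19.2 and 27.8 CPM (log2 fold change 0.73, SE 0.15), Ndufb4, of complex I, rose by 0.68 (SE 0.16), and Psma6, of the proteasome core, by 0.53 (SE 0.15). The calls of Rps27a, Ndufb4 and Psma6 were lost without 2 h replicate C and with length and GC trends removed, where the changes were 0.24, 0.44 and 0.17. Leaving out 1 library moved the count of cytosolic ribosomal protein genes between 0 (without 0 h replicate A) and 45 (without 2 h replicate B), and that of respiratory chain subunits between 0 (without 2 h replicate C) and 27 (without 2 h replicate B). The mitochondrial ribosomal count ranged from 3 (without 2 h replicate C) to 31 and the proteasome count from 0 (without 0 h replicate A) to 21 (both without 2 h replicate B). With length and GC trends removed the counts of higher genes were 9, 13, 1 and 2 for these lists, in the order given above, and the medians 0.20, 0.22, 0.09 and 0.13.

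**Figure D4:**
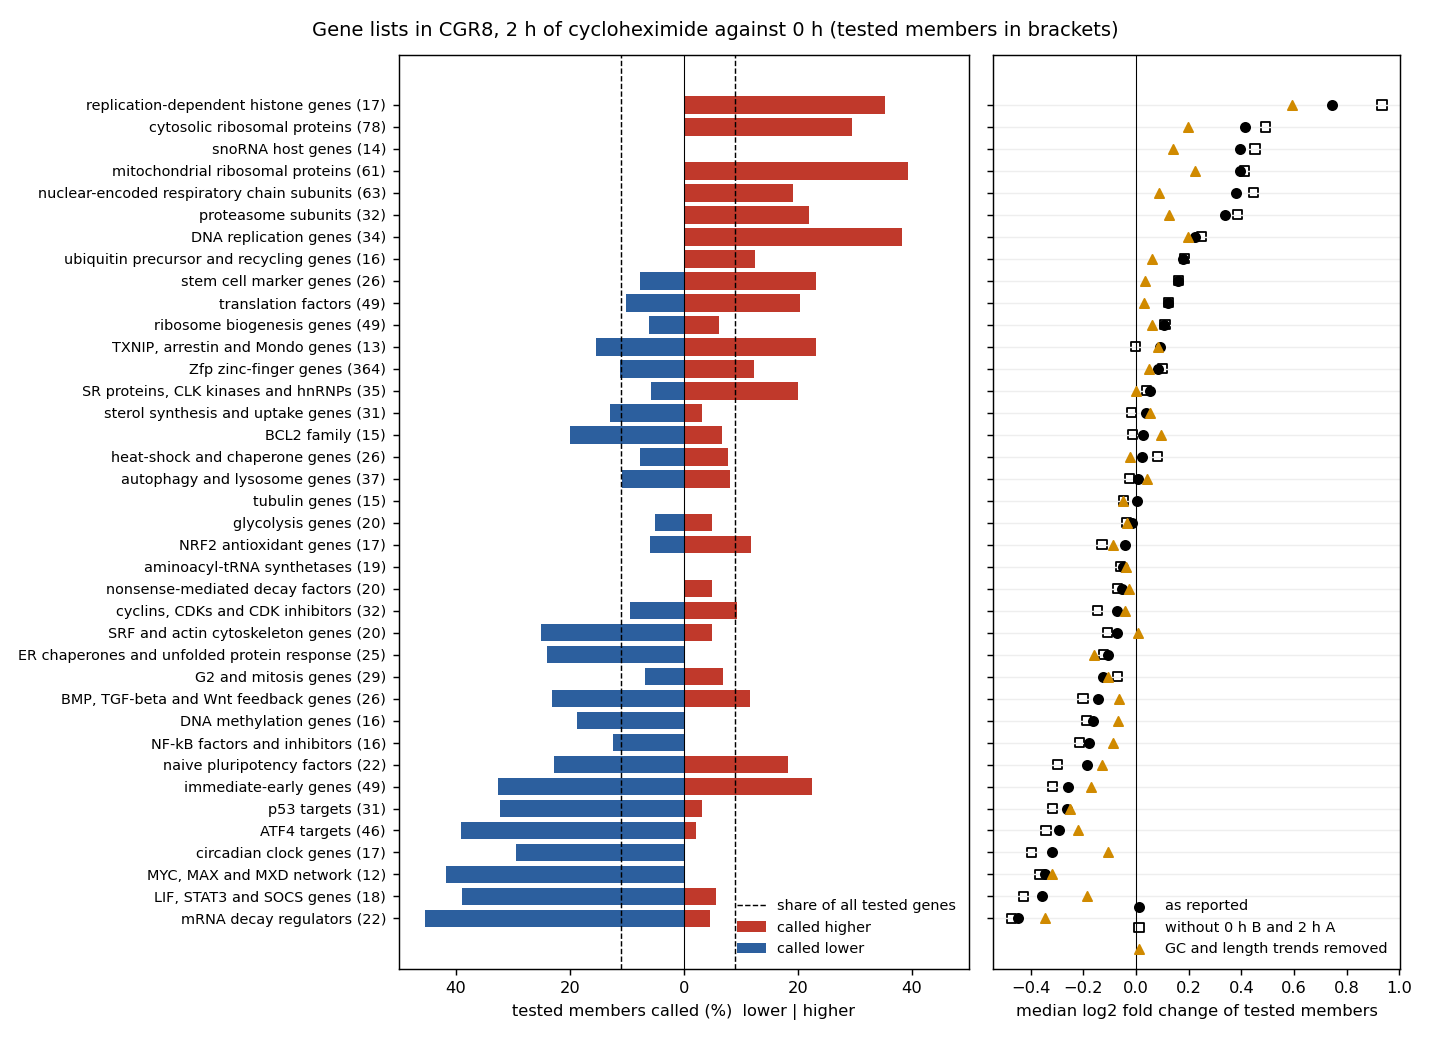
Left, the percentage of tested members of each list with at least 12 such members called higher (red) or lower (blue), with dashed lines at the 8.97% and 11% of all genes. Right, the median log2 fold change of the list as reported, without 0 h replicate B and 2 h replicate A, and with GC and length trends removed; the medians of ribosomal, respiratory and proteasome lists move towards 0 in the last.

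These lists hold short transcripts, and the fold change followed transcript length over all genes. Across 13039 protein-coding genes the Spearman correlation of the log2 fold change was -0.49 with transcript length, -0.33 with exon number and -0.22 with GC content, which is a description since genes are not replicates. With the genes in 5 equal groups by length, the median change in the group with the shortest transcripts (168 to 1808 bases) was 0.27, with 19.2% called higher and 1.57% lower. In the group with the longest (from 5164 bases) it was -0.32, with 1.88% higher and 26% lower. Single libraries also varied with length within their group. The deviation from the mean of the other replicates had a Spearman correlation with length of -0.50 in 0 h replicate B, -0.40 in 2 h replicate A and 0.69 in 2 h replicate B. The median transcript length was 1076 bases for cytosolic ribosomal protein genes, 1001 bases for respiratory chain subunits, 1962 bases for mitochondrial ribosomal protein genes and 1851 bases for proteasome subunits. What part the length trend of the libraries has in these changes was not tested. Removing the length and GC trends takes out any part of the 2 h change that follows length or GC, of whatever origin. With both trends removed 2295 genes were called (1060 higher, 6.65% of those tested, and 1235 lower, 7.75%), and 1684 of the 3174 calls (53.1%) were kept, all in the same direction. Among transcripts of 3000 to 6000 bases, 23.6% of the 89 single-exon genes and 1.04% of genes with 15 or more exons were called higher.

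**Figure D5:**
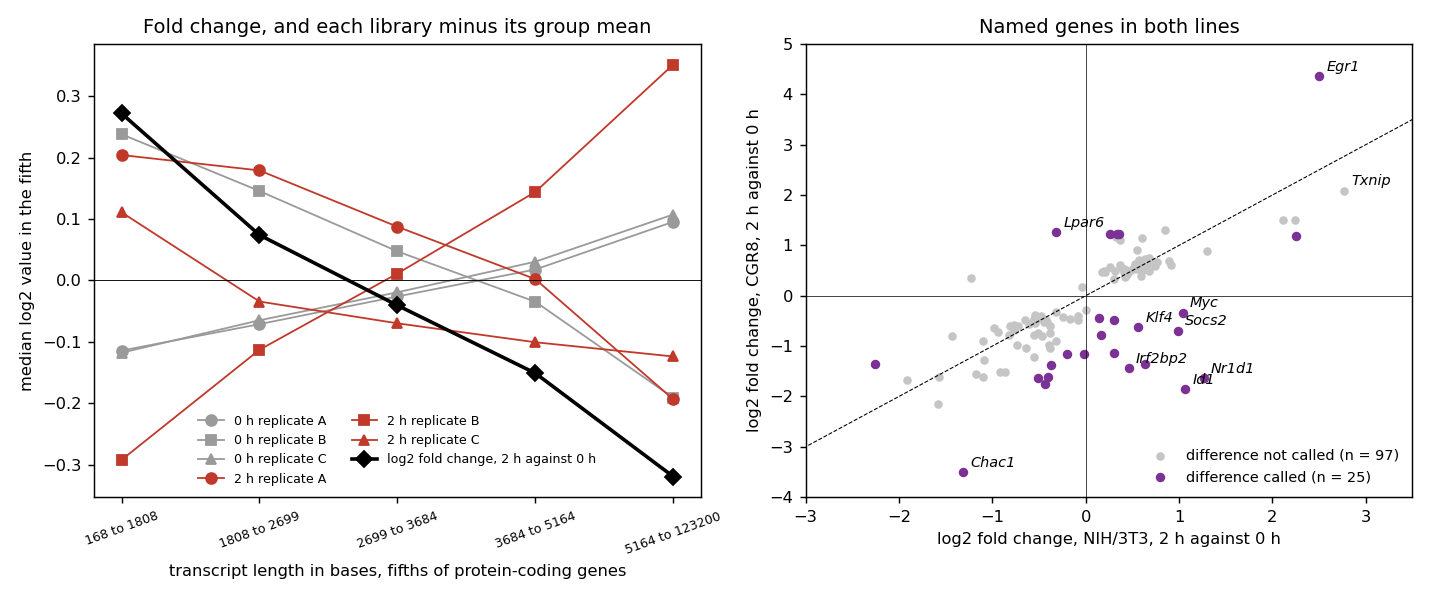
Left, median log2 values in 5 equal groups of protein-coding genes by transcript length. Black is the fold change at 2 h against 0 h. Grey (0 h) and red (2 h) are each library minus the mean of the other replicates of its group. The panel title calls that mean the group mean. The fold change falls from 0.27 to -0.32 while single libraries of both groups slope up or down. Right, log2 fold changes of named genes at 2 h in CGR8 and NIH/3T3 with a dashed line of equality; purple marks the 25 whose difference between the lines was called, most of them below the line.

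DNA replication genes have a median transcript of 3254 bases. Of 34 members 13 rose and 0 fell (median 0.22), where 8.97% of all genes rose and 11% fell. With the trends removed 8 rose (6.65% of all genes did), although without 2 h replicate C the count was 1. Orc6, of the origin recognition complex, was at 120, 115 and 130 CPM and then at 150, 164 and 211 CPM (log2 fold change 0.52, SE 0.12, adjusted p = 0.0094), and Prim1, the primase subunit, rose by 0.51 (SE 0.12). The Orc6 call was lost without 2 h replicate C and with the trends removed, where its change was 0.20. Of 17 histone genes 6 rose and 0 fell (median 0.74), and 5 rose with the trends removed. Hist1h1c, a linker histone, went from 3.73, 2.38 and 3.14 CPM to 7.27, 8.56 and 10.6 CPM (log2 fold change 1.51, SE 0.18, adjusted p = 8.5e-05). The list was drawn up for replication-dependent histones, whose mRNAs mostly lack a poly(A) tail, and it also held H1f0, a replacement linker histone, which rose by 0.70 (SE 0.13).

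Many splicing factors have unproductive isoforms that are cleared by translation-coupled decay. Of 35 SR proteins, CLK kinases and hnRNPs 7 rose and 2 fell, where 8.97% of all genes rose and 11% fell. Without 2 h replicate C 4 rose, and the median was 0.05, or 0.00 with length and GC trends removed. Srsf3 went from 520, 629 and 564 CPM to 889, 766 and 930 CPM (log2 fold change 0.59, SE 0.11, adjusted p = 0.0025), and Srsf7 from 362, 357 and 366 CPM to 470, 541 and 732 CPM (log2 fold change 0.68, SE 0.13). The cold-inducible Rbm3 and Cirbp rose by 0.66 and 0.74, and the Rbm3 call was lost with the trends removed (0.46). Gene-level counts do not separate isoforms. Of 14 snoRNA host genes, whose spliced RNAs are known to be held low by nonsense-mediated decay, 13 had a positive change and none passed the test by edgeR (median 0.40, and 0.14 with the trends removed). An unadjusted p under 0.05 was reached by 3, DESeq2 called 0 and voom 1. Without both 0 h replicate B and 2 h replicate A, 2 of these host genes were called higher (median 0.45). Leaving out 2 h replicate A alone gave 3 (median 0.67), and the median was 0.18 without 0 h replicate B alone. Of 364 Zfp zinc-finger genes 45 rose (12.4%) and 41 fell (11.3%), where 8.97% of all genes rose and 11% fell. With the trends removed 66 rose, a larger share than the 6.65% of all genes, and 34 fell, where 7.75% of all genes did. Without 2 h replicate C 19 rose and 22 fell, and without 2 h replicate A 73 rose.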

How the data were processed

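Per the labels' protocols, RNA of CGR8 and NIH/3T3 cells was purified on columns and went through a stranded, ligation-based mRNA library kit. The authors deposited read counts per gene, raw and without normalization, as read from the table: whole numbers whose columns sum to different totals. Per the submitters' processing notes, STAR, DESeq2 and the build GRCm39 were used; the counting tool, strand setting and annotation release are not given in the sources used here. Symbols, transcript length, GC content and overlaps come from GENCODE M21 on GRCm38, matched by Ensembl identifier with versions ignored (51880 of 57186, 90.7%), so no gene coordinates of the counts are given. Promoters are RefSeq windows on GRCm38.p6.

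Libraries were grouped by their labels. The 15 CGR8 libraries were fitted in 1 model with a term per time in edgeR 4.0.16 (R 4.3.3), after filterByExpr (minimum count 10, minimum total 15) and TMM scaling. Contrasts of 2 h with 0 h and with 1 h used the quasi-likelihood F test, with Benjamini-Hochberg adjustment over all genes and calls at an adjusted p under 0.05. The standard error (SE) of a log2 fold change is its size over the root of F. The line difference was an interaction in all 30 libraries. CPM is the deposited count over the library total times its TMM factor, and low counts are the least precise. Totals of the 6 libraries were 23.3 to 29.9 M. The test was run on simulated counts first.

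Named genes are the 14 largest rises and falls (called, at least 10 CPM in the higher group, no overlap, no predicted genes or pseudogenes), up to 4 called members of each of 40 lists at 5 CPM or more, and Pou5f1, Sox2, Nanog, Klf4, Esrrb, Zfp42 and Myc; the text gives those that illustrate a group. The members and lists were chosen with earlier results of these data known. Alternatives were RLE or library totals for scaling, DESeq2 1.42.0, a fit of only the groups compared, a block for the replicate letter, no filter, a minimum mean of 5 CPM, voom with quality weights (limma 3.58.1), each library left out, and 0 h replicate B and 2 h replicate A both left out. Removal of GC and length trends per library, by splines of 4 degrees of freedom as offsets, was chosen after seeing the data. It also takes out changes with time that follow GC or length.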

Additional observations from a re-analysis of the deposited data

Results flagged for a closer look

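For 25 named genes the change at 2 h differed between CGR8 and NIH/3T3 by edgeR's interaction test, given here as the CGR8 minus NIH/3T3 difference of log2 fold changes. Id1 differed by -2.87 (SE 0.24, adjusted p = 2.8e-09), with -1.86 in CGR8 and 1.07 in NIH/3T3, and Nr1d1 by -2.85 (SE 0.21, adjusted p = 2.7e-10), with -1.64 and 1.26. The estimate was likewise negative in CGR8 and positive in NIH/3T3 for genes with smaller differences: Spry4 differed by -1.95, Irf2bp2 by -1.85, Socs2 by -1.62, Zfp36l2 by -1.40, Klf4 by -1.14, Bcl2l11 by -0.88, Nfkbia by -0.74 and Cdkn1a by -0.53. Myc differed by -1.33 (SE 0.17, adjusted p = 4.6e-06) although its fall of 0.34 in CGR8 was not called. Lpar6 went the other way, higher in CGR8 and at -0.32 in NIH/3T3, a difference of 1.63 (SE 0.20).

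Other genes had negative estimates in both lines, further from 0 in CGR8, and differed as follows: Chac1 by -2.14, Ccni by -1.26, Herpud1 by -1.16, Slc38a2 and Nab2 by -1.07 each, Tob2 by -0.94 and Mafg by -0.90. Ccn2 differed by -1.02, with 1.18 in CGR8 and 2.25 in NIH/3T3. Differences were positive for Egr1 (1.92), Bbs10 (1.02), Calhm5 (0.94), Trmt12 (0.91) and Zfp251 (0.95). Zfp251 was at -1.36 in CGR8 and -2.26 in NIH/3T3.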

How the results depend on the processing

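Of 138 named genes, 135 were called, and over 2202 pairs of a gene and an alternative 1905 kept direction and call, 294 lost the call, 1 gained it and 2 reversed: with GC and length trends removed Magoh was at -0.038 and Myh9 at 0.033. That alternative ended 43 calls, the compared groups alone 59, leaving out 2 h replicate C 56 and leaving out 0 h replicate A 49; DESeq2 and voom ended none. The cause was not tested.

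The 3174 calls at 2 h against 0 h fell to 965 with the compared groups alone, and leaving out single libraries gave 1062 (2 h replicate C) to 3924 (2 h replicate B). Calls of at least 2-fold (443) numbered 102 at a mean of 5 CPM or more and 222 with the compared groups alone, and 215 to 645 with a library left out; the share higher among them was 65.5%, 34.3% at 5 CPM or more, 51.4% with the compared groups alone, 49.9% without 0 h replicate B and 49.5% without 2 h replicate B. Among all calls it was 45.0%, and 35.8% with the compared groups alone.

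The 1050 calls against 1 h were the least stable: 17 with the compared groups alone, 337 with the replicate block, 661 with trends removed, 1817 at 5 CPM or more, 2114 by voom, 2443 without a filter, 2447 by DESeq2, and 26 (without 1 h replicate A) to 3340 (without 2 h replicate B) with a library left out. The 355 line differences were 182 with the compared groups alone, 606 with trends removed and 709 by voom.

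Replicate letters were not taken to pair the libraries: deviations of same-letter libraries at 0 h and 2 h correlated at -0.75, -0.79 and 0.41 across genes for A, B and C. With the replicate block 2929 genes were called at 2 h against 0 h, 408 of them at least 2-fold, and 329 line differences. Other counts of these 4 kinds stayed within 1.5 times the reported ones.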

Other observations

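Several groups of genes not described above were also counted at 2 h, where 8.97% of all genes rose and 11% fell. Some were near these shares, such as the autophagy and lysosome list below (8.11% higher and 10.8% lower). None of 15 tubulin genes (median 0.00), 11 polyamine and antizyme genes (median 0.07) or 9 mitochondrially encoded genes (median 0.03) was called by edgeR. At an unadjusted p under 0.05 these lists had 2, 1 and 0 members, DESeq2 called 0 in each and voom called 1 tubulin gene. Sterol genes had 1 rise and 4 falls of 31, and the member that rose was Cyp51, a demethylase of sterol synthesis, by 0.46 (SE 0.10). Glycolysis genes had 1 rise (Pdk1, pyruvate dehydrogenase kinase, 0.48) and 1 fall (Hk2, hexokinase, -0.48) of 20, and Hk2 was at -0.21 with no call once GC and length trends were removed. Among 37 autophagy and lysosome genes 3 rose and 4 fell, with the conjugation gene Atg12 at 56.1, 54.6 and 58 CPM and then at 83, 82 and 94 CPM (log2 fold change 0.62, SE 0.10) and the lipid transfer gene Atg2a at -0.68 (SE 0.13). With the trends removed Atg2a was at -0.19 with no call.

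Mafg, a small Maf partner of NRF2, fell from 132, 117 and 125 CPM to 63.6, 58.3 and 46.2 CPM (log2 fold change -1.16, SE 0.12, adjusted p = 2.5e-05 by edgeR), the largest change among the 17 NRF2 antioxidant genes, of which 2 rose and 1 fell. Of 16 DNA methylation genes 3 fell and 0 rose, with Dnmt1 at -0.40 (SE 0.12) and at -0.07 with no call once the trends were removed. Of 29 G2 and mitosis genes 2 rose and 2 fell, with Mki67 at -0.60 (SE 0.19) and Cdk1 at 0.33 (SE 0.10); both calls were lost without 0 h replicate A, 0 h replicate C or 2 h replicate C, and that of Mki67 also without 2 h replicate A and that of Cdk1 without 0 h replicate B. Leaving out 0 h replicate B and 2 h replicate A together ended both calls too.

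These small counts move with single libraries. Without 2 h replicate C 0 sterol genes and 1 autophagy or lysosome gene fell, and with the trends removed these were 0 and 1 as well. Without 0 h replicate A 0 glycolysis genes and 1 DNA methylation gene fell, 0 NRF2 genes rose, and 0 G2 and mitosis genes rose or fell.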
